A study of Rattus norvegicus with 18 samples.

Results

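The genes described here encode the proteins of the mitochondrial ribosome. They were chosen by symbol alone, as every row of the deposited table whose symbol begins with Mrpl or Mrps followed by a number, which gave 76 of 32883 rows. No measured value entered the choice. The 76 rows carry 75 symbols, because Mrps21l stands on 2 rows, and all 76 passed the filter of a mean of at least 1 TPM, as did 12393 rows in all. TPM is a transcript abundance corrected for length and scaled to the same total in each library, so levels may be compared between genes.

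The RNA came from cortical collecting ducts, the tubule segments of the kidney cortex where salt, water and acid excretion are adjusted. They were dissected by hand from male Sprague-Dawley rats 3 h after an intraperitoneal dose of lipopolysaccharide (LPS), a cell wall component of Gram-negative bacteria, or of normal saline (Vehicle). The sources used here give neither the LPS dose nor the age of the rats. Each group held 3 numbered samples, with 3 libraries for each, 18 libraries in all. The design text calls the samples paired, and no label says what a pair shared or that the numbered samples were separate animals, so a p-value covers only how these samples vary. A dissected duct holds principal cells, intercalated cells and a few cells of other kinds, and fewer cells of a type cannot be told apart from less RNA per cell.

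Mitochondria keep a small genome of their own, and the messages it encodes, all for membrane subunits of the respiratory chain and ATP synthase, are translated by a dedicated ribosome inside the organelle. The RNA of this ribosome is made in the mitochondrion, whereas all of its proteins are encoded in the nucleus, made in the cytosol and imported. Part of the protein set descends from the bacterial ribosome and part was added in mitochondria. Kidney tubule cells are rich in mitochondria, which supply the ATP for ion transport.

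The number of genes with at least 1 TPM ran from 11399 to 12704 over the libraries. Within a sample, a library's median correlation with the other libraries of that sample across genes lay between 0.953 and 0.977, lowest in library 1 of Vehicle 3. The defining markers of the segment were present: 10 principal cell markers summed to 12400, 8841 and 9462 TPM in LPS 1, 2 and 3, against 16650, 15890 and 17760 TPM in Vehicle 1, 2 and 3. Of these 10 markers 7 were called lower by the test described below (70.0%, against 22.2% of all genes). The 8 intercalated cell markers summed to 7643, 6749 and 5920 TPM in LPS and 8416, 8529 and 8108 TPM in Vehicle, and 1 of the 8 was called lower (12.5%). The 12 macrophage markers summed to 443, 271 and 211 TPM in LPS and 252, 123 and 180.0 TPM in Vehicle, and of the 10 tested 5 were called higher and 1 lower (against 7.17% and 22.2% of all genes). The 7 neutrophil markers summed to 6.02, 2.18 and 78.4 TPM in LPS and 0.43, 0.42 and 0.497 TPM in Vehicle. Only S100a8 and S100a9 were tested, with Vehicle means of 0 and 0.044 TPM. They passed the filter through their LPS values alone. Both were called higher (against 7.17% of all genes), a result that the filter favoured in advance. Red cell markers summed to 2272, 27.5 and 267 TPM in LPS and 1009, 152 and 130.2 TPM in Vehicle, highest in sample 1 of either group, with 0 called. Markers of the distal convoluted and connecting tubule, the segments upstream, stood apart in Vehicle 1, with 332, 60.4 and 130.1 TPM in LPS and 5344, 142 and 246 TPM in Vehicle. The part of these differences in the results below was not tested.

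The promoters of 3 members are shown because these genes represent the members that rose, held their level and fell. Each window runs from 250 bases before to 50 bases after the gene's RefSeq start in the GRCr8 assembly, 300 bases in all, and is given 5′ to 3′ on the gene's own strand. Capitals mark matches, on either strand, to the core motifs searched. The Mrps6 window (chr11:44778417-44778716, plus strand) held none of them. The Mrpl17 window (chr1:169575650-169575949, minus strand) held the NRF1 core. The Mrpl50 window (chr5:68668038-68668337, minus strand) held the YY1 core and the short ETS core.
Mrps6: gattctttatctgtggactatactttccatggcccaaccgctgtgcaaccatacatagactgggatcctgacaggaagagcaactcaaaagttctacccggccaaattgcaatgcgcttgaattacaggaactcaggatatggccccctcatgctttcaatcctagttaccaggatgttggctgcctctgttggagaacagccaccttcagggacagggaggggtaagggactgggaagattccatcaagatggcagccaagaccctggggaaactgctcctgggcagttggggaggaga
Mrpl17: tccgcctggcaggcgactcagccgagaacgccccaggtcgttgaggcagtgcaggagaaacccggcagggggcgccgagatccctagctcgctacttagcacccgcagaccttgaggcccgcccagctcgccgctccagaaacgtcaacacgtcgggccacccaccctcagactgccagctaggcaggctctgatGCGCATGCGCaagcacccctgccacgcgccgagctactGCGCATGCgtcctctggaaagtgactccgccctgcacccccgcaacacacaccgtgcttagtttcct
Mrpl50: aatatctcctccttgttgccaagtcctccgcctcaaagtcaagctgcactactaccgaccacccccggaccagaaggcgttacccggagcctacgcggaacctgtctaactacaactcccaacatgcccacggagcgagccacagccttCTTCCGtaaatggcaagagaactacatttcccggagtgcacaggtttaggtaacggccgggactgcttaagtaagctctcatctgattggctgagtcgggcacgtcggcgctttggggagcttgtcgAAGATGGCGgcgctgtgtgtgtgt

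Promoter windows were on hand for 59 of the 75 symbols, and the first window listed was used for each gene, members and others alike. NRF1, the ETS factor GABP and YY1 are known regulators of nuclear genes for mitochondria. The short ETS core CGGAAG was found in 31 of 59 windows (52.5%), against 17.4% of the windows of all 27457 genes in the RefSeq table. The longer GABP core CCGGAAGT, which contains the short one, was found in 8 (13.6%), against 4.01% over all genes. The YY1 core AAGATGGCG was found in 9 (15.3%), against 1.93%, and the NRF1 core GCGCATGC in 5 (8.47%), against 2.66%. Both strands were searched, and a match is a match of letters and not a site of binding. Among the 11 members called lower that had a window, CGGAAG occurred in 3, AAGATGGCG in 1, CCGGAAGT in 0 and GCGCATGC in 0. Among the other 48 members the numbers were 28, 8, 8 and 5.

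Before any comparison, the members were well expressed. Their mean levels ranged from 1.63 to 315 TPM with a median of 69.6 in LPS, and from 0.454 to 311 TPM with a median of 91.1 in Vehicle. At least 100 TPM was reached by 30 members in LPS and 36 in Vehicle, and fewer than 10 TPM by 6 members in LPS and 5 in Vehicle. The 8 members with the highest levels made up 28.3% of the family's TPM in LPS and 25.0% in Vehicle. The order of levels was much the same in both groups, with r = 0.963 between the log2 levels across the 76 genes, which share libraries and are not independent.

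The family as a whole took a smaller share of the transcriptome after LPS. Its summed level was 7997, 5971 and 6268 TPM in LPS 1, 2 and 3, against 8375, 7999 and 7583 TPM in Vehicle 1, 2 and 3, with a mean of 6745 ± 1094 TPM in LPS and 7986 ± 396 TPM in Vehicle (SD, n = 3 each). LPS 1 lay within the Vehicle range and the other LPS samples below it. In total TPM this was 0.674% in LPS and 0.799% in Vehicle. Ratios within a library do not depend on how libraries are scaled. Per 100 TPM of nuclear respiratory chain genes, the family had 9.53, 8.43 and 8.51 TPM in LPS and 10.8, 9.63 and 10.7 TPM in Vehicle, without overlap. Per 100 TPM of cytosolic ribosomal proteins it had 36.0, 28.7 and 28.7 TPM in LPS and 40.1, 38.1 and 37.0 TPM in Vehicle, again without overlap. Per 100 TPM of mitochondrially encoded transcripts it had 9.67, 7.23 and 7.88 TPM in LPS and 8.84, 9.51 and 8.99 TPM in Vehicle, where LPS 1 was the highest of all. An exact permutation test of 3 against 3 that ignores the pairs cannot go below p = 0.10, and keeping the pairs raises that floor. No test was therefore made of these sums.

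**Figure D1:**
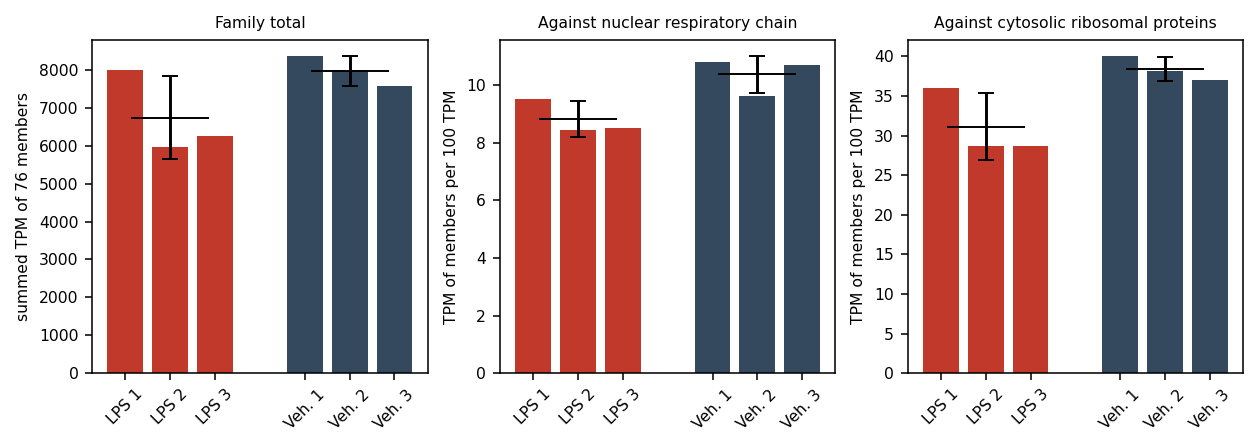
Summed TPM of the 76 members (left), and the same sum per 100 TPM of nuclear respiratory chain genes (middle) and of cytosolic ribosomal protein genes (right), in each numbered sample. Bars are samples, and the line and error bar are the group mean and SD (n = 3). In LPS 1 the sum was 7997 TPM, inside the Vehicle range of 7583 to 8375 TPM, while both ratios were lower in every LPS sample than in every Vehicle sample.

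Gene by gene, log2(TPM + 1) was compared between LPS and Vehicle with limma, with the sample number as a block and Benjamini-Hochberg adjustment over the 12393 genes, and a gene was called at an adjusted p under 0.05. Of the 76 members 1 was called higher (1.32%, against 7.17% of all genes tested) and 13 were called lower (17.1%, against 22.2%). The median change of the members was -0.34, that of all genes -0.38, and 69 members had a change below 0. The share called lower is near the background. At an unadjusted p under 0.05, 1 member was higher (against 9.49% of all genes) and 27 were lower (against 37.8%). The 3 LPS values lay below all 3 Vehicle values in 28 members (36.8%, against 47.1% of all genes) and above them in 2 (2.63%, against 9.82%). Changes varied less among members than among genes at large, with an SD of 0.31 against 0.90 (log2). The interquartile range was -0.54 to -0.18 for the members and -0.69 to -0.03 for all genes.

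The direction of the family depends on the scaling. TPM holds each library to 1 total, and after LPS the median gene of that total was lower. With median-ratio scaling the median change of all genes was -0.02 instead of -0.38. The median of the members was then 0.05, with 34 members below 0 and 42 above, 0 called lower (against 3.71% of all genes) and 1 called higher (against 6.62%). With quantile normalization the medians were -0.19 for the members and -0.13 for all genes, with 0 members called lower (against 4.5% of all genes) and 0 higher (against 6.43%). Relative to the median of all genes, the members stood at 0.04 in TPM, 0.07 under median-ratio scaling and -0.06 under quantile normalization. The calls given below as rises and falls are those in TPM. Each of the 14 called members kept the sign of its change in all 19 alternative analyses, and under median-ratio scaling Mrps6 alone was called.

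**Figure D2:**
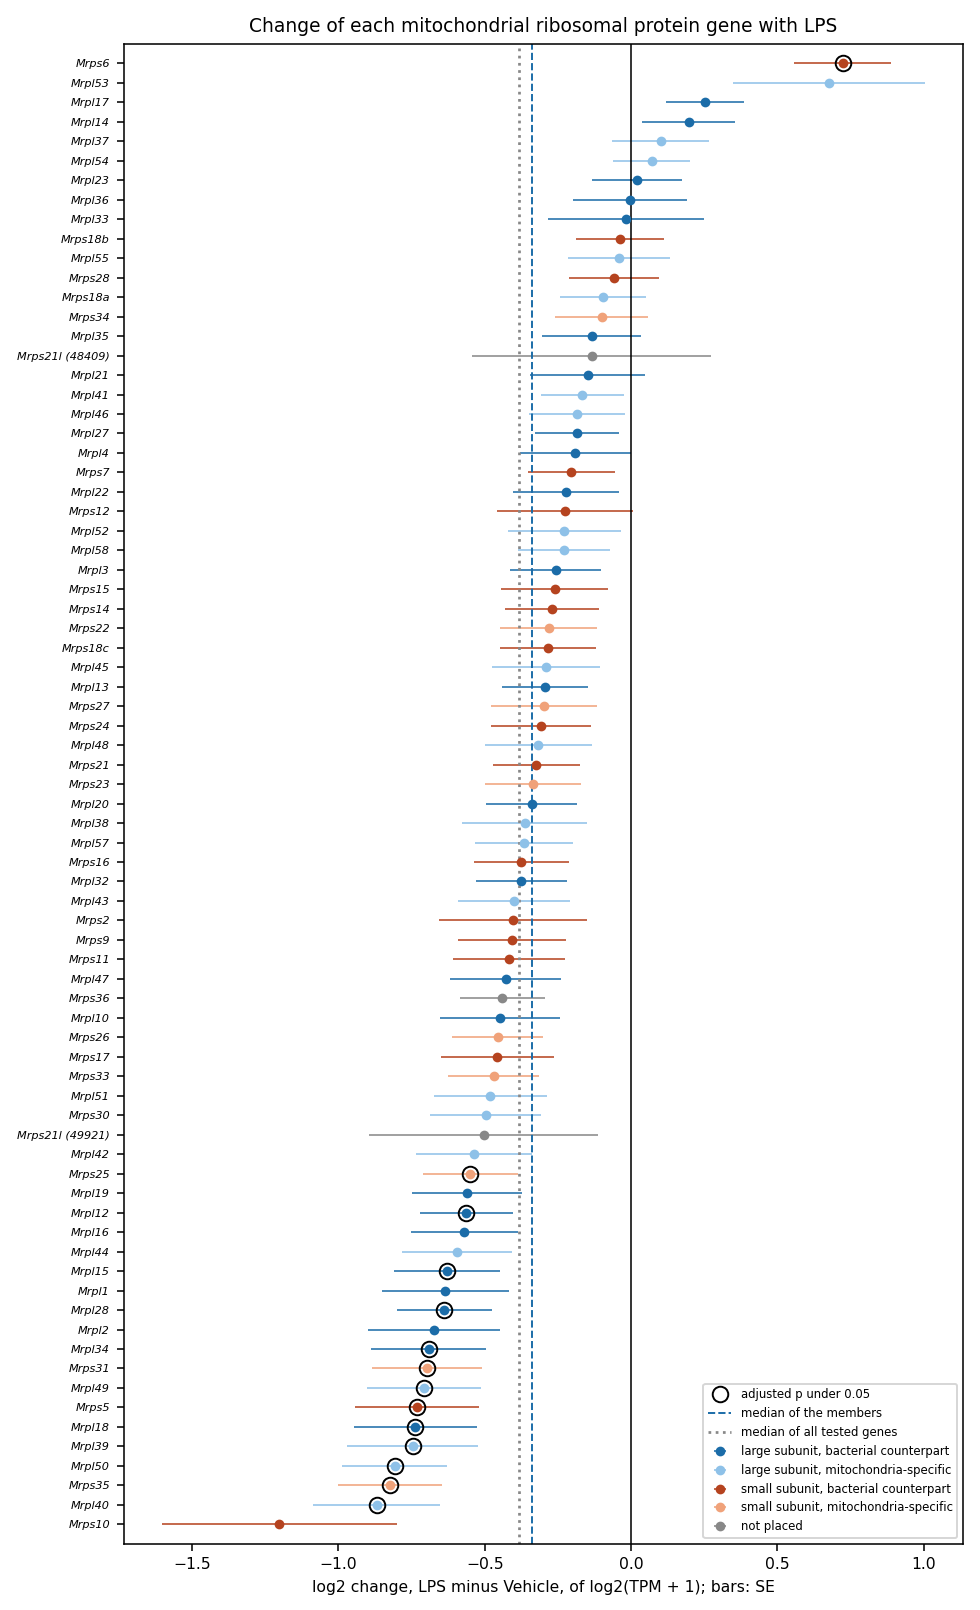
Change of each of the 76 members, LPS minus Vehicle, on the log2(TPM + 1) scale, ordered from highest to lowest, with the SE as bars and colours for the place of the protein in the ribosome. The dashed line is the median of the members (-0.34), the dotted line that of all genes tested (-0.38), and rings mark the 1 member called higher and the 13 called lower.

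The member that rose was Mrps6 (ENSRNOG00000059381), the counterpart of bacterial ribosomal protein S6 in the small subunit. It had 288, 313 and 340.3 TPM in LPS 1, 2 and 3, against 211, 199 and 163 TPM in Vehicle 1, 2 and 3. Every LPS sample was above every Vehicle sample. The mean was 314 ± 26.1 TPM in LPS and 191 ± 25.1 TPM in Vehicle (SD, n = 3 each), a log2 change of 0.72 with SE 0.17 (limma, adjusted p = 0.0247). Mrps6 ranked 2nd of the 76 members in LPS and 9th in Vehicle. Per 1000 TPM of the family it had 36.0, 52.5 and 54.3 TPM in LPS and 25.2, 24.9 and 21.5 TPM in Vehicle. Its change was 1.13 with median-ratio scaling (limma, adjusted p = 0.0458) and 0.69 with quantile normalization (adjusted p = 0.061). The call was lost without the 2nd pair (adjusted p = 0.0807) and without the 3rd pair (adjusted p = 0.281). Without the 3rd pair 0 of all genes were called, and without the 2nd pair 3.38% were called higher, against 7.17% with all pairs. In the RefSeq GRCr8 table the gene Slc5a3, for a myo-inositol transporter, lies within Mrps6 on the same strand. Slc5a3 was not analysed here, and reads of the 2 genes cannot be told apart in these values.

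A few members held their level or stood higher while most of the family stood lower. Mrpl17, the counterpart of bacterial L17 in the large subunit, had 318, 303 and 325 TPM in LPS and 278, 258 and 258 TPM in Vehicle. The LPS samples were all above the Vehicle samples, and Mrpl17 had the highest level of all members in LPS, but its change of 0.25 with SE 0.13 did not pass the test (limma, adjusted p = 0.171). Mrpl14, the counterpart of bacterial L14, had 162, 122 and 129 TPM in LPS and 121, 123 and 115 TPM in Vehicle, and the groups overlapped (change 0.20, adjusted p = 0.344). As a part of the family's own total, Mrpl14 had 20.2, 20.4 and 20.6 TPM per 1000 in LPS and 14.4, 15.3 and 15.1 in Vehicle, a tight separation. When each library was scaled to an equal family median, Mrpl17 (0.66, adjusted p = 0.0475), Mrpl14 (0.61, adjusted p = 0.0403) and Mrps6 (1.14, adjusted p = 0.0343) were called higher by limma. That was 3.95% of members against 7.2% of all genes, and 0 members were called lower against 3.63%. Mrpl54, a large subunit protein that bacteria lack, had 326, 279 and 294 TPM in LPS and 305, 275 and 276 TPM in Vehicle. Mrpl37, likewise added in mitochondria, had 135, 109.9 and 114 TPM in LPS and 112, 127 and 98.6 TPM in Vehicle. In TPM neither differed beyond the spread of its samples. Per 1000 TPM of the family, Mrpl54 had 40.7, 46.8 and 47.0 TPM in LPS and 36.4, 34.4 and 36.4 in Vehicle. Mrpl37 had 16.9, 18.4 and 18.2 in LPS and 13.3, 15.8 and 13.0 in Vehicle. On this measure the groups did not overlap for Mrpl54, Mrpl37 or Mrpl17, so the separation was not particular to Mrpl14.

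Among the large subunit proteins with a bacterial counterpart, 25 in number, 5 fell (20.0%, against 22.2% of all genes) and 0 rose (against 7.17%), with a median change of -0.34. The share that fell was thus near the background. Mrpl12 forms the stalk that recruits translation factors. It had 143, 104 and 116 TPM in LPS and 182, 179 and 171 TPM in Vehicle, without overlap, and its change was -0.56 with SE 0.16 (limma, adjusted p = 0.0397). Mrpl28 had 115, 81.5 and 84.2 TPM in LPS and 153, 148 and 133 TPM in Vehicle, also without overlap (-0.64, SE 0.16, adjusted p = 0.0312). Mrpl15 had the highest mean level in Vehicle, with 299, 159 and 169 TPM in LPS and 336, 294 and 302 TPM in Vehicle. LPS 1 lay inside the Vehicle range for Mrpl15, while the other LPS samples stood far below it (-0.63, SE 0.18, adjusted p = 0.0422). Mrpl18 had 96.9, 44.5 and 60.0 TPM in LPS and 115, 100.5 and 106 TPM in Vehicle (-0.74, adjusted p = 0.0403). Mrpl34 had 192, 102 and 104 TPM in LPS and 219, 208 and 189.7 TPM in Vehicle (-0.69, adjusted p = 0.0400). For Mrpl34 LPS 1 again lay inside the Vehicle range.

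Among the 22 large subunit proteins added in mitochondria, counted with Mrps30 and Mrps18a because their proteins sit in the large subunit, 4 fell (18.2%, against 22.2% of all genes) and 0 rose, with a median of -0.34. Mrpl40 (ENSRNOG00000049686) had the largest fall among called members. It had 27.8, 13.5 and 16.8 TPM in LPS and 36.7, 32.3 and 34.8 TPM in Vehicle, every LPS sample below every Vehicle sample, with a change of -0.87 and SE 0.22 (limma, adjusted p = 0.0303). Mrpl50 (ENSRNOG00000053615), whose promoter is given above, had 32.9, 21.8 and 26.3 TPM in LPS and 50.5, 44.8 and 46.8 TPM in Vehicle (-0.81, SE 0.18, adjusted p = 0.0232). Its groups were well apart. Mrpl49 had 42.1, 30.9 and 29.4 TPM in LPS and 51.6, 57.5 and 57.0 TPM in Vehicle (-0.71, adjusted p = 0.0381). Mrpl39 had 30.3, 15.5 and 17.2 TPM in LPS and 36.0, 35.7 and 31.1 TPM in Vehicle (-0.75, adjusted p = 0.0461). For Mrpl39 the gap between LPS 1 and the lowest Vehicle sample was small. Mrpl49 overlaps Syvn1, a ubiquitin ligase gene, in the RefSeq GRCr8 table, one of 16 among 74 matched members that overlap another protein-coding gene there, and the sources used here do not say whether counting used strand.

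The small subunit proteins with a bacterial counterpart, 17 in number, had 1 rise, Mrps6, and 1 fall, Mrps5, each 5.88%, against 7.17% of all genes higher and 22.2% lower. Their median was -0.31. Mrps18b (change -0.04) was counted here, while Mrps18a was counted with proteins added in mitochondria. Mrps5 had 41.2, 34.1 and 25.9 TPM in LPS and 55.6, 50.2 and 62.1 TPM in Vehicle, without overlap (-0.73, SE 0.21, limma, adjusted p = 0.0422). Mrps12, whose bacterial counterpart S12 lies at the decoding centre, had 358, 170.2 and 189 TPM in LPS and 262, 285 and 248 TPM in Vehicle. LPS 1 was the highest of the 6 samples and the other LPS samples the lowest, and no change was called (-0.23, adjusted p = 0.454). Mrps2 had 18.6, 25.0 and 9.50 TPM in LPS and 21.3, 24.4 and 20.8 TPM in Vehicle. LPS 1 and LPS 3 were below every Vehicle sample, LPS 3 by far the lower, and LPS 2 was above them. Mrps10 had 2.98, 2.34 and 2.37 TPM in LPS and 20.7, 3.68 and 4.27 TPM in Vehicle. It had the most negative change of the family, -1.20, which did not pass the test (adjusted p = 0.0602) and was -0.57 without pair 1. The high value came from Vehicle 1, the sample with 5344 TPM of distal convoluted and connecting tubule markers, mostly Calb1. The part of those cells was not tested.

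Of the 9 small subunit proteins added in mitochondria 3 fell (33.3%, against 22.2% of all genes), and the median was -0.46, the lowest of the 4 classes. Counts and medians were not taken with Mrps18b moved to this class. Mrps35 (ENSRNOG00000001842) had the smallest p of any member. It had 19.2, 17.9 and 19.5 TPM in LPS and 37.0, 33.2 and 32.5 TPM in Vehicle, with little spread in either group and no overlap. Its change was -0.82 with SE 0.18 (limma, adjusted p = 0.0219). Mrps31 had 25.1, 16.5 and 16.4 TPM in LPS and 36.1, 26.8 and 32.1 TPM in Vehicle (-0.70, adjusted p = 0.0359). Mrps25 had 77.1, 81.8 and 92.3 TPM in LPS and 128, 122 and 117 TPM in Vehicle (-0.55, adjusted p = 0.0443). Unlike most members, Mrps25 was lowest in LPS 1.

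**Figure D3:**
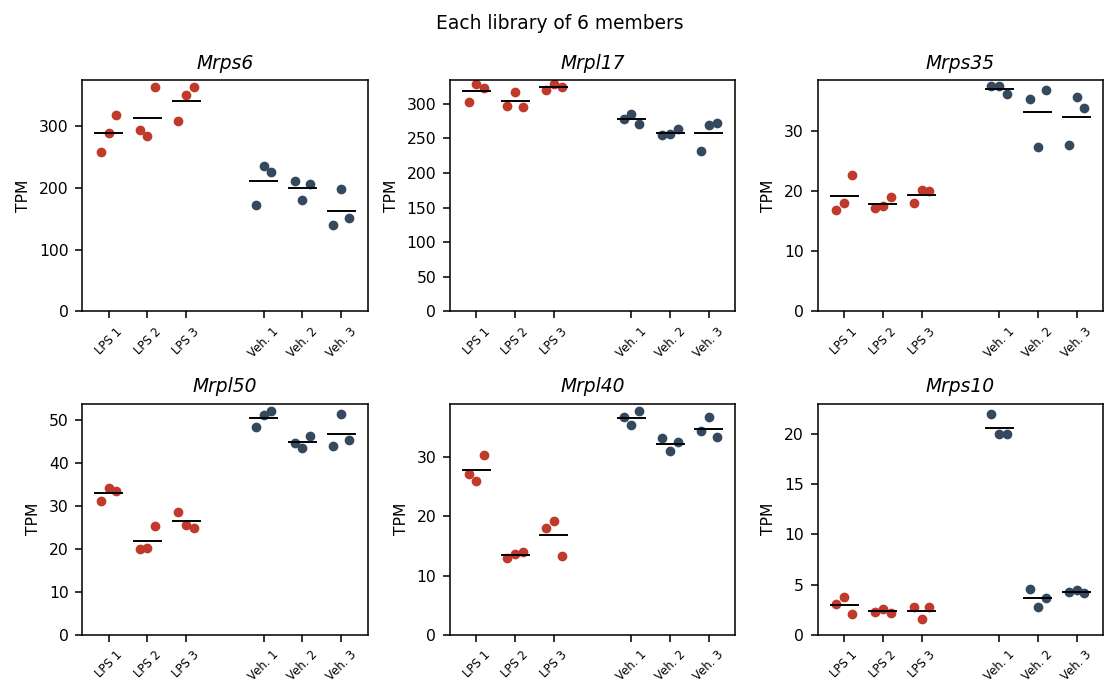
TPM of 6 members in each of the 18 libraries, grouped by numbered sample, with LPS in red and Vehicle in blue and a line at the mean of each sample's libraries. Mrps6 and Mrpl17 are higher in every LPS sample than in every Vehicle sample, Mrps35, Mrpl50 and Mrpl40 are lower in every LPS sample, and Mrps10 is high in Vehicle 1 alone, at 20.7 TPM.

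Sums by class were compared within each sample. The large subunit had 172, 166 and 169 TPM per 100 TPM of the small subunit in LPS and 176, 173 and 176 in Vehicle, slightly lower in every LPS sample. The small subunit sum holds Mrps6, which rose, and this ratio was not taken without it. A shift between the subunits beyond Mrps6 is therefore not shown. In the small subunit, proteins with a bacterial counterpart had 331, 317 and 321 TPM per 100 TPM of those added in mitochondria in LPS, against 263, 285 and 265 in Vehicle, higher in every LPS sample. Without Mrps6 the same ratio was 287, 258 and 258 in LPS and 237, 258 and 243 in Vehicle, a smaller gap, with LPS 2 and LPS 3 level with the highest Vehicle sample. Neither ratio was taken with Mrps18b placed among the proteins added in mitochondria. In the large subunit that ratio was 153, 147 and 158 in LPS and 157, 160.0 and 157 in Vehicle, and the groups overlapped.

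Mrpl53 and Mrps21l have low and uncertain values. Mrpl53 had 6.48, 9.76 and 0 TPM in LPS and 0.560, 0.803 and 0 TPM in Vehicle, and its LPS values came from 1 library each, at 19.45 and 29.29 TPM, with the other libraries listed at 0. The 2 rows of Mrps21l held equal values in 15 of 18 libraries, 8 of them above 0, so how reads were divided between the copies is uncertain, and so is either level. Mrps36 carries the family's symbol, though its protein is known as a component of the alpha-ketoglutarate dehydrogenase complex. Mrps36 had 206, 161 and 171 TPM in LPS and 250.2, 246 and 233 TPM in Vehicle, without overlap and without a call (-0.44, adjusted p = 0.0584).

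The LPS samples did not behave alike. Between same-numbered samples the median change of the members was -0.11 in pair 1, -0.52 in pair 2 and -0.40 in pair 3, while that of all genes was -0.20, -0.37 and -0.54. LPS 1 was below all Vehicle samples in 30 members (39.5%, against 56.0% of all genes), LPS 2 in 64 (84.2%, against 65.3%) and LPS 3 in 63 (82.9%, against 66.5%). LPS 1 was the highest of the LPS samples in 68 of 76 members, 89.5%, against 60.4% of all genes. In all 3 pairs 49 members were lower in LPS (64.5%, against 57.1% of all genes) and 4 were higher (5.26%, against 13.1%). Without pair 1 limma called 26 members lower (34.2%, against 29.0% of all genes) and 1 higher (1.32%, against 8.10%), with a median of -0.45 beside -0.46 for all genes. Without pair 2 limma called 0 members in either direction, against 3.38% of all genes higher and 2.39% lower. Without pair 3 it called 0 members and 0 of all genes. By mean level, 0 of 6 members under 10 TPM were called lower, 7 of 19 from 10 to 50 TPM, 1 of 17 from 50 to 100 TPM, 4 of 27 from 100 to 200 TPM and 1 of 7 at 200 TPM or more. Of all genes at these levels 21.5%, 28.1%, 19.8%, 14.7% and 7.70% were called lower. The medians of the members in the same order were -0.49, -0.43, -0.34, -0.27 and -0.23, and those of all genes were -0.46, -0.45, -0.29, -0.21 and -0.05.

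**Figure D4:**
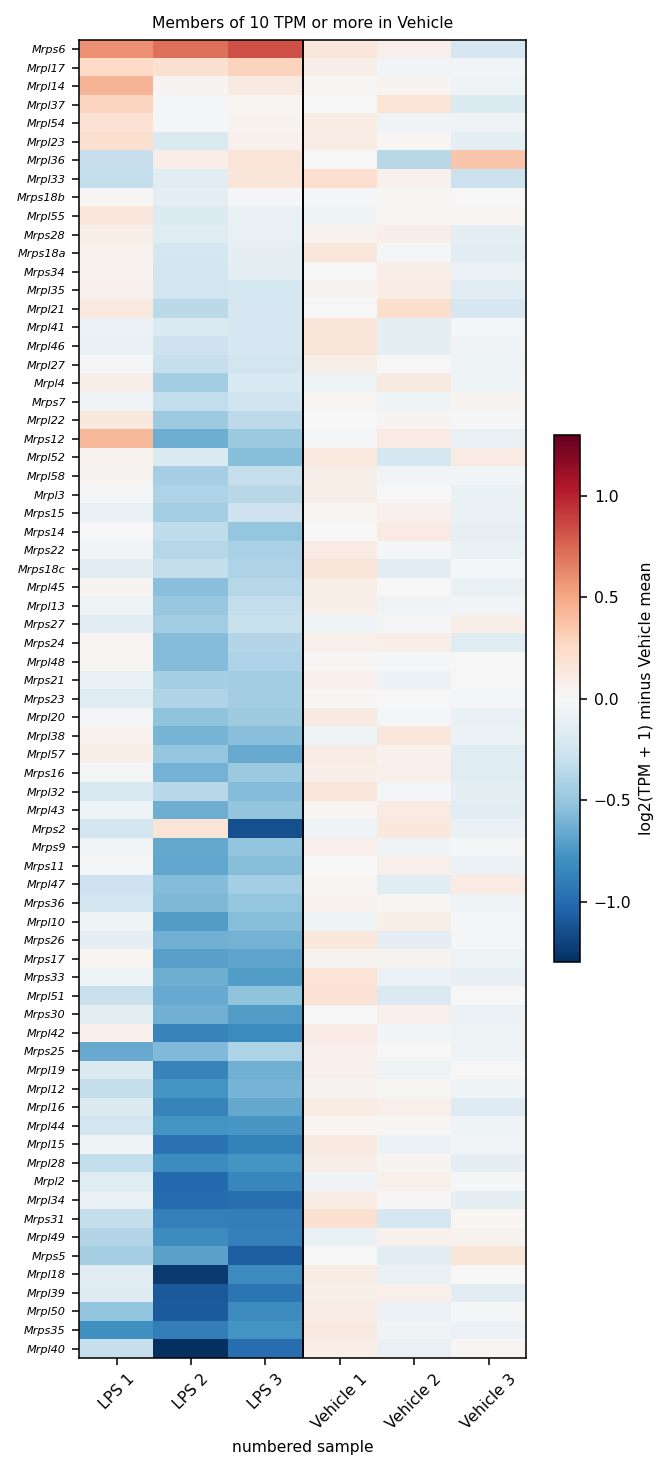
Level of each member with at least 10 TPM in Vehicle, as the difference from its Vehicle mean on the log2(TPM + 1) scale, with LPS samples left of the line, Vehicle samples right of it and members ordered by their change. Blue is lower and red is higher. LPS 2 and LPS 3 are blue in most rows, LPS 1 is pale in most, and the top row, Mrps6, is red in all 3 LPS samples.

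Genes that build and serve the mitochondrial ribosome were described from lists chosen for this comparison. Of 26 assembly factors 10 fell (38.5%, against 22.2% of all genes) and 0 rose (against 7.17%), with a median of -0.64 beside -0.38 for all genes. The 26 summed to 773 TPM in Vehicle and were not matched for level. All genes from 10 to 50 TPM had 28.1% called lower and a median of -0.45. Trub2, a pseudouridine synthase of mitochondrial RNA, averaged 24.3 ± 4.61 TPM in LPS and 55.7 ± 5.54 TPM in Vehicle (SD, n = 3 each). Its change was -1.18 with SE 0.21 (limma, adjusted p = 0.0135), and it was also called lower with median-ratio scaling (-0.79, adjusted p = 0.0470) and quantile normalization (-0.94, adjusted p = 0.0385). Mrm1, a methyltransferase of the ribosomal RNA of the large subunit, averaged 4.19 ± 2.53 TPM in LPS and 12.5 ± 0.377 TPM in Vehicle (-1.48, adjusted p = 0.0180). Under either of those scalings 1 assembly factor was called. Of 5 mitochondrial ribosome proteins with other symbols 1 fell (20.0%), Ptcd3, at 43.8 ± 9.19 TPM in LPS and 74.2 ± 4.75 TPM in Vehicle (-0.77, adjusted p = 0.0240). Of 14 translation factors 4 fell (28.6%) and 0 rose, with a median of -0.56, and 0 were called under either scaling. Mtrf1, a release factor, had the largest change of those named, -1.11 (adjusted p = 0.0265).

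Of 23 genes that load mitochondrial tRNAs 7 fell (30.4%, against 22.2% of all genes) and 1 rose (4.35%, against 7.17%), with a median of -0.51. The one that rose was Kars, the lysyl-tRNA synthetase that serves both cytosol and mitochondria, at 165 ± 36.2 TPM in LPS and 87.1 ± 0.574 TPM in Vehicle (0.89, limma, adjusted p = 0.0180). Of 23 genes for mitochondrial transcription and RNA upkeep 5 fell (21.7%) and 1 rose (4.35%), with a median of -0.41, all near the values of all genes. Mterf2, of the transcription termination factor family, averaged 7.92 ± 3.85 TPM in LPS and 22.1 ± 0.767 TPM in Vehicle (-1.48, adjusted p = 0.0150). Pnpt1, a mitochondrial polynucleotide phosphorylase, averaged 67.1 ± 15.5 TPM in LPS and 29.9 ± 3.74 TPM in Vehicle (1.12, adjusted p = 0.0184). Kars and Pnpt1 were called higher under both other scalings.

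The transcripts this ribosome translates, the nuclear partners of their products and the cytosolic ribosomal proteins had medians near 0 in TPM. Of 13 mitochondrially encoded transcripts 1 fell (7.69%, against 22.2% of all genes), and their median was -0.06. Mt-atp8 was the gene that fell (-0.37, limma, adjusted p = 0.0273, and 0.04 with median-ratio scaling). Of 78 nuclear respiratory chain genes 1 fell (1.28%), and the median was -0.05. Of 90 cytosolic ribosomal protein genes 0 were called in either direction (against 7.17% of all genes higher and 22.2% lower), and the median was 0.03. With median-ratio scaling these 3 medians were 0.35, 0.36 and 0.44, while that of the mitochondrial ribosomal proteins was 0.05 and that of the assembly factors -0.30. The differences between lists were not tested, and the lists were not matched for level. In Vehicle these 3 lists summed to 87730, 77130 and 20790 TPM, against 7986 TPM for the members. All genes at 200 TPM or more had a median of -0.05 in TPM, with 7.7% called lower.

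**Figure D5:**
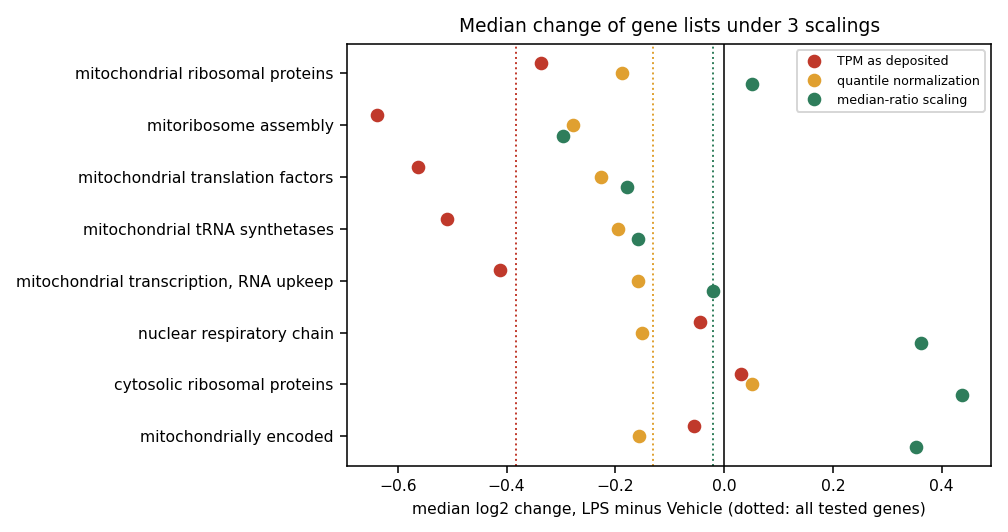
Median log2 change, LPS minus Vehicle, of 8 gene lists in TPM as deposited and after quantile normalization and median-ratio scaling, with dotted lines at the median of all genes tested in the same colours. The assembly factors lie left of the dotted line of their colour under each scaling, at -0.64, -0.28 and -0.30, and the mitochondrial ribosomal proteins lie near it, at -0.34, -0.19 and 0.05.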

How the data were processed

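RNA was copied with a SMARTer ultra-low-input kit, amplified and made into Nextera XT libraries, per the labels' protocols. The authors deposited TPM values per gene and library. STAR 2.7.9a, RSEM 1.3.3 and Rnor_6.0 are named in the submitters' processing notes. TPM keeps no read number, so the depth and counting error of a value are unknown. Column names with N were read as normal saline and with L as LPS. No libraries were identical (0 pairs). Libraries of a sample were averaged as log2(TPM + 1), and those averaging 1 TPM or more were fitted with limma 3.58.1 in R 4.3.3 (variance trend, sample number as a block, two-sided, Benjamini-Hochberg adjustment). Of 32883 rows 20490 were not tested. The pairing comes from the design text. As a check, deviations from the group means were correlated across genes between the members of each pair (r = 0.062, -0.018 and 0.069). The correlations were weak, so the check gave no sign of anything shared within a pair. Sums and ratios were taken on TPM, without a test.

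Named members were all those called, the 8 highest, the 6 largest rises and falls and the 5 most variable. Up to 3 genes of smallest p were named per other list. Rules, members and lists were chosen with earlier results of these data known. Promoter windows and overlaps are from RefSeq, GRCr8, matched by symbol, and no coordinates of the build used for the counts are given. The alternatives were other library summaries, pseudocounts, filters, scalings and variance models, and each sample number left out. Those that leave out libraries unlike their own sample were added after the data were seen.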

Additional observations from a re-analysis of the deposited data

How the results depend on the processing

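Among the 27 named members, the calls depended on the processing more than the directions did. Of all 76 members, 69 had a change below 0 in TPM, 34 with median-ratio scaling and 33 with scaling to the family median. Of 510 values of 27 named members under 19 alternatives, 345 kept their direction and side of the threshold, 140 lost the call, 10 gained it and 15 turned in sign or reached 0. Without the replicate block, 912 genes were higher and 3624 lower, with 1 member higher and 12 lower (15.8%, against 29.2% of all genes). All 18 libraries with an estimated correlation gave 5295 genes lower, with 2 members higher and 43 lower (56.6%, against 42.7% of all genes). Summarising a sample by the median of its libraries gave 0 genes and 0 members in either direction (limma, unadjusted p under 0.05: 1019 genes higher and 4167 lower). Averaging TPM before the log gave 2082 genes and 6 members lower (16.8% and 7.89%). With no filter 18 genes were higher and 2 lower, with 0 members called (unadjusted, 1 member higher and 29 lower). Dropping the variance trend gave 2375 genes and 4 members lower (19.2% and 5.26%). Genes called lower numbered 460 with median-ratio scaling, 558 with quantile normalization and 450 with scaling to the family median. Members called lower were 0 under each of these 3, and those called higher 1, 0 and 3. The median of the members was 0.052 with median-ratio scaling and 0.058 with scaling to the family median.

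Leaving out each replicate number gave 0 to 1004 genes higher and 0 to 3595 lower, and 0 to 1 members higher and 0 to 26 lower. Without replicate 2 the counts of genes were 419 higher and 296 lower, and without replicate 3 they were 0 and 0 (limma, unadjusted p under 0.05: 738 higher and 1463 lower, and of members 2 higher and 4 lower). Without library 1 of Vehicle 3, the library least like its own sample, 1699 genes and 7 members were lower (13.7% and 9.21%). Without that library, library 2 of Vehicle 3 and library 1 of Vehicle 1, 228 genes were higher and 72 lower, with 0 members called (unadjusted, 1 member higher and 26 lower). The cause was not tested.

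The named members whose sign turned were uncalled, and only these are given here. Members not named also turned with median-ratio scaling, such as Mrpl4, from -0.19 to 0.212. Mrps12 changed by 0.179, 0.185 and 0.033 with median-ratio scaling, with scaling to the family median and without replicate 2 (from -0.562 to 0.033 over the replicates left out). Under the same 2 scalings Mrps16 changed by 0.030 and 0.036 and Mrpl41 by 0.239 and 0.244. Mrpl53 was at 0 with the median of the libraries. With TPM averaged before the log, the rows of Mrps21l changed by 0.003 and 0.010. The row ENSRNOG00000048409 also changed by 0.078 with the median of the libraries, 0.008 with a pseudocount of 5, -0.692 to 0.288 over the replicates left out (0.288 without replicate 2, 0 without replicate 3), and 0 without library 1 of Vehicle 3.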

Other observations

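Nuclear regulators of mitochondrial biogenesis moved in both directions. Of 11 such genes 3 fell (27.3%, against 22.2% of all genes) and 2 rose (18.2%, against 7.17%), with a median of -0.41 beside -0.38 for all genes. Ppargc1a, which encodes the coactivator PGC-1α, had 26.9, 13.5 and 14.4 TPM in LPS 1, 2 and 3, against 62.4, 73.9 and 111 TPM in Vehicle 1, 2 and 3. Every LPS sample was below every Vehicle sample, and the change was -2.14 with SE 0.31 (limma, adjusted p = 0.00729). It was also called lower with median-ratio scaling (-1.75, adjusted p = 0.0350) and quantile normalization (-1.91, adjusted p = 0.0306). It was not called without replicate 3 (adjusted p = 0.248), where 0 of all genes were called. Its relative Ppargc1b had 1.19, 0.813 and 0.863 TPM in LPS and 4.43, 7.53 and 7.52 TPM in Vehicle (-1.92, adjusted p = 0.00723).

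Myc, a transcription factor of cell growth, had 2.39, 34.5 and 25.2 TPM in LPS and 0.970, 0.543 and 0.590 TPM in Vehicle. LPS 1 was far below the other LPS samples, and the change was 3.14 (limma, adjusted p = 0.0202, and 0.0657 with median-ratio scaling). Chosen after their values were seen, Pprc1, a further coactivator of the family, rose (1.07, adjusted p = 0.0304) and Gabpb2, a subunit partner of GABP, fell (-0.91, adjusted p = 0.036). The factors whose cores were searched in the promoters were not called. Nrf1 had a change of -0.54 (adjusted p = 0.0925), Gabpa of -0.41 (adjusted p = 0.189) and Yy1 of -0.24 (adjusted p = 0.368).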
